A study of Mus musculus with 6 samples.

Results

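The genes described here are 7 genes of MHC class II antigen presentation in the mouse, H2-Aa, H2-Ab1, H2-Eb1, Cd74, H2-DMa, H2-DMb1 and H2-DMb2, together with Ciita, the gene of their transcriptional coactivator. They were found by matching the Ensembl gene identifiers of the count tables to these 8 symbols, and all 8 were found among the 54752 genes counted. All 8 also passed the filter on low counts, which left 18617 genes for testing. RNA had been sequenced from the whole right hippocampus of wild-type C57BL/6 mice (C57BL/6 J in the study's methods), 3 with sham operation and 3 with BCAS (bilateral carotid artery stenosis), with 1 library per mouse. The labels give 14 weeks for every mouse, which was taken as the age, and per the study's methods the mice were male and were sampled 3 weeks after the operation. BCAS mice wore a microcoil around each common carotid artery, with the narrower coil on the right, and sham mice had the same surgery without coils. The comparison asks how the class II genes of the hippocampus on the more constricted side differed after weeks of reduced blood flow. It covers whole tissue at 1 time point from animals that survived the operation. In such bulk RNA more cells of a type and more RNA per cell cannot be told apart.

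MHC class II molecules are pairs of an α and a β chain that carry peptides from endocytosed protein to the cell surface, where CD4 T cells read them. The chains assemble in the endoplasmic reticulum around the invariant chain, the product of Cd74, which fills the groove and steers the complex to endosomes. There proteases trim the invariant chain to the fragment CLIP, and the H2-DM heterodimer exchanges CLIP for peptide. CIITA does not bind DNA itself but docks on RFX, CREB and NF-Y proteins at the X, X2 and Y boxes of class II promoters, and interferon-γ is its best known inducer. In the brain, class II molecules are scarce on resting microglia and are found on activated microglia, macrophages of the brain's borders and infiltrating leukocytes.

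Class II promoters are known for an ordered set of boxes through which CIITA acts, and the stretches that hold it are printed here because 4 of the genes share this feature. RefSeq promoter windows (assembly GRCm38.p6, from 250 bases before to 50 bases after a gene's start) were given for 5 of the 8 genes. H2-Ab1, Cd74 and Ciita had none. Each line runs 5′ to 3′ on the gene's own strand, and the capitals mark first the X box core (AACNGATG) or, in H2-Aa, the X2 box (TGACGTCA), and then the Y box (TGATTGG, the reverse complement of a CCAAT motif).
H2-DMb2, chr17:34145120-34145171, plus strand: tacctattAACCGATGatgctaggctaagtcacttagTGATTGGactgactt
H2-DMb1, chr17:34153091-34153142, plus strand: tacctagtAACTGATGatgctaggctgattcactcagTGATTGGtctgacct
H2-Eb1, chr17:34305770-34305820, plus strand: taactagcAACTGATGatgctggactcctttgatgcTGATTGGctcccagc
H2-Aa, chr17:34287859-34287905, minus strand: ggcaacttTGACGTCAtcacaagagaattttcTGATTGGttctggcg
H2-Eb2, chr17:34325537-34325587, plus strand: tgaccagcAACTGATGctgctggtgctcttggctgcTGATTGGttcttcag
The X box core and the Y box lay 21 bases apart in both H2-DM β genes and 20 bases apart in H2-Eb1, and the X2 box of H2-Aa lay 16 bases before its Y box. The stretches of H2-DMb2 and H2-DMb1 lie before the RefSeq starts but inside the gene models counted here, which start at 34143307 and 34153072. Searched on both strands of all 32851 windows of the table, the X box core matched in 2.32%, the X2 box in 1.79% and the Y box in 7.82%. An X or X2 box followed by a Y box within 40 bases stood in 18 windows (0.0548%), 5 of them class II genes. The fifth, H2-Eb2, is not among the 8 genes and is shown because it carries the same arrangement and was nearly silent in these libraries, with 0 counts in every sham library and 0, 2 and 4 counts in BCAS libraries 1 to 3. The 2 windows of H2-DMa (chr17:34122582-34122881 and chr17:34125268-34125567) held none of these letters. Both lay far upstream of the gene model counted here, which starts at 34135182. The promoter at that start was not searched, so its boxes are unknown here. The windows of H2-Oa and H2-Ob, further class II genes, held a Y box but no X box core or X2 box. By the criteria given below, 0 of the 13 other genes with an X or X2 box before a Y box rose and 0 fell. Of these, 11 were not called and 2 were not tested. A match describes the letters alone, and the printed matches do not overlap each other. The letters were chosen with the class II promoters known.

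The libraries held 29652456 to 35607098 counts. A count of 3, the limit that a count of 0 allows if counts are independent, equalled 0.0874 to 0.0994 CPM (counts scaled by library size, normalized by TMM), which covers counting error only. Mates of a pair were counted separately, so the true limit may be higher. The groups were compared by the quasi-likelihood test of edgeR, with Benjamini-Hochberg adjustment over all tested genes. The filter required a minimum level in 3 libraries. A gene low in sham mice was therefore tested only if it was high enough in BCAS mice, as were H2-DMb2, H2-Oa and Xcr1. Genes with |log2 fold change| above 1 and adjusted P under 0.05 were taken as DEGs, by the study's own criteria, and "rose" or "fell" is used for DEGs alone. Markers of hippocampal neurons such as Slc17a7, Prox1 and Neurod6 were expressed in all 6 libraries. The 5 markers summed to 2039 to 2134 CPM in sham mice and 1026 to 1499 CPM in BCAS mice. Of the 5, 1 fell, Neurod6 (log2 fold change -1.56, adjusted P = 0.00137). The other 4 were not called, among them Slc17a7 (-0.69, adjusted P = 0.0249). Genes of the choroid plexus, a tissue that adjoins the hippocampus, varied widely within both groups, from 67.0 to 4041 CPM in sham mice and from 45.0 to 5870 CPM in BCAS mice for 5 markers summed. BCAS mouse 2 was the BCAS library with the least of them.

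Of the 8 genes, 7 rose in BCAS mice and 0 fell, against 8.47% of all tested genes that rose and 0.999% that fell. H2-DMb2, among the 7, would not have passed the filter on low counts by its sham levels. H2-DMa was also higher in BCAS mice but stayed under the fold threshold. In all 8 genes every BCAS library lay above every sham library, which was so for 25.3% of all tested genes. The median log2 fold change of the 8 genes was 2.72, beside a median of 0.02 over all tested genes. Their summed level was 26.8 to 31.3 CPM in sham mice and 129.7 to 150.7 CPM in BCAS mice.

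**Figure D1:**
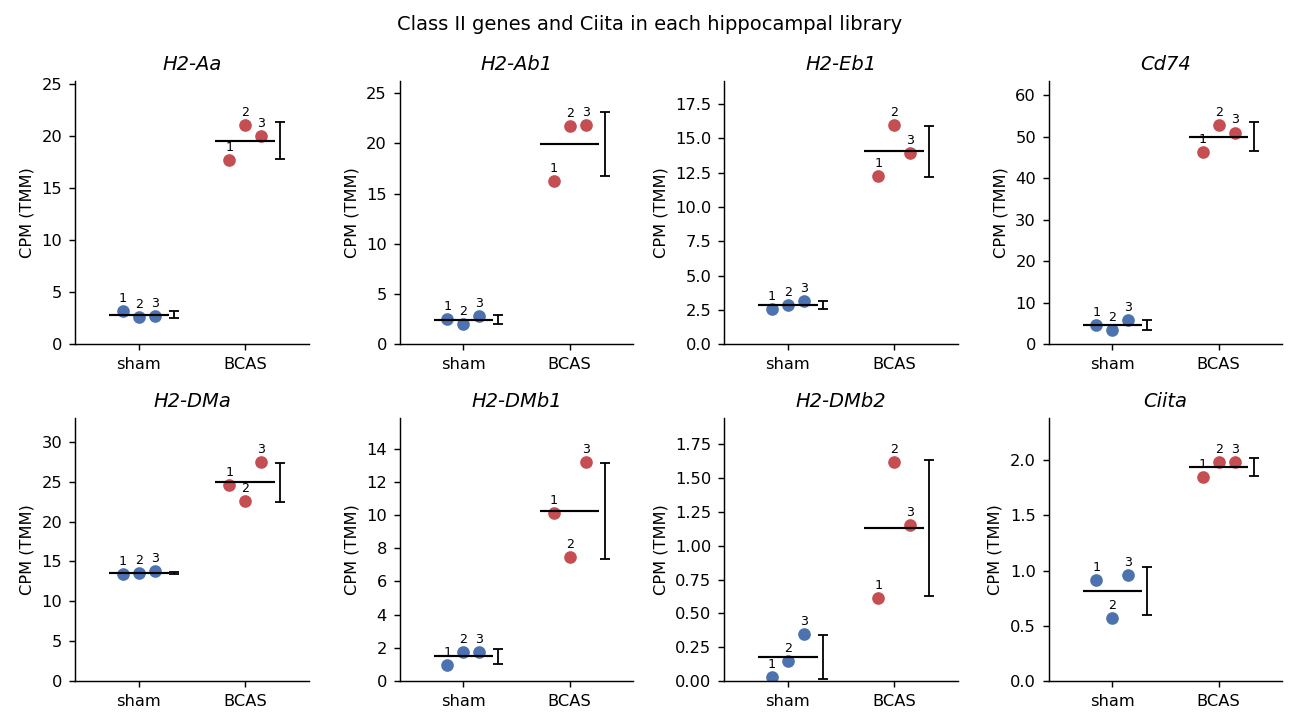
TMM-normalized CPM (y axis, linear from 0, own scale in each panel) of the 8 genes in the 3 sham libraries (blue) and 3 BCAS libraries (red), numbered by replicate. Horizontal lines are group means and bars at the side are SD (n = 3). All BCAS points lie above all sham points in each panel, and they come closest on the CPM scale in H2-DMb2, at 0.350 in sham mouse 3 and 0.615 in BCAS mouse 1.

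Cd74 showed the largest fold change of the 8 genes. This gene (ENSMUSG00000024610.14, chr18:60803848-60812646, plus strand, GRCm38) encodes the invariant chain, which also serves as a receptor for the cytokine MIF at the cell surface. It had 156, 116 and 198 counts in sham mice 1 to 3, against 1505, 1597 and 1594 in BCAS mice 1 to 3. The BCAS libraries were close to each other and far above the sham libraries. The mean level was 4.61 ± 1.15 CPM in the sham group against 50.1 ± 3.42 CPM after BCAS (SD, n = 3 each). This was a log2 fold change of 3.44 (SE 0.174, adjusted P = 1.16e-05), or 10.8-fold. Of its 1410 exonic bases, 12 are shared with the microRNA gene Mir5107, and the counting ignored strand.

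H2-Aa and H2-Ab1 encode the α and β chains of I-A, the peptide-presenting class II molecule of this strain. H2-Ab1 (ENSMUSG00000073421.5, chr17:34263209-34269418, plus strand) had 84, 66 and 98 counts in the sham libraries and 530, 656 and 682 in the BCAS libraries. It averaged 2.44 ± 0.442 CPM in the sham group against 19.96 ± 3.17 CPM after BCAS (SD, n = 3 each), with a log2 fold change of 3.03 (SE 0.187, adjusted P = 1.93e-05). H2-Aa (ENSMUSG00000036594.14, chr17:34282744-34287827, minus strand) had 109, 86 and 92 counts in the sham libraries and 574, 636 and 624 in the BCAS libraries. The lowest BCAS library of either gene held over 5 times the counts of the highest sham library. H2-Aa averaged 2.82 ± 0.344 CPM in the sham group against 19.6 ± 1.75 CPM after BCAS (SD, n = 3 each), with a log2 fold change of 2.79 (SE 0.146, adjusted P = 1.16e-05).

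H2-Eb1 encodes the β chain of I-E. C57BL/6 mice carry a deletion in the promoter of the I-E α gene and make no I-E at the cell surface, so that the β chain lacks its partner. H2-Eb1 (ENSMUSG00000060586.10, chr17:34305877-34316199, plus strand) had 88, 95 and 109 counts in the sham libraries and 399, 482 and 435 in the BCAS libraries. Its log2 fold change was 2.29 (SE 0.160, adjusted P = 2.75e-05), from 2.87 ± 0.291 CPM in the sham group to 14.1 ± 1.85 CPM after BCAS (SD, n = 3 each). The annotated I-E α gene of this genome, H2-Ea-ps, was at 0 counts in 5 libraries and at 1 count in BCAS mouse 3. The transcripts of the β chain were therefore higher in BCAS mice without measurable transcripts of its α chain.

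The genes of the H2-DM peptide editor moved unequally. H2-DMa (ENSMUSG00000037649.9, chr17:34135182-34139101, plus strand), the α chain of H2-DM, had 455, 451 and 472 counts in the sham libraries and 800, 683 and 859 in the BCAS libraries. It differed little among sham libraries, at 13.6 ± 0.175 CPM, and reached 24.9 ± 2.46 CPM after BCAS (SD, n = 3 each). The log2 fold change was 0.88 (SE 0.108, adjusted P = 0.0005), which passed the test but not the fold threshold. H2-DMb1 (ENSMUSG00000079547.3, chr17:34153072-34160230, plus strand), the main β chain, had 32, 58 and 60 counts in the sham libraries and 329, 225 and 413 in the BCAS libraries. The mean was 1.48 ± 0.461 CPM in the sham group against 10.3 ± 2.89 CPM after BCAS (SD, n = 3 each), with a log2 fold change of 2.80 (SE 0.295, adjusted P = 0.000208). BCAS mouse 2 was the lowest BCAS library for both of these chains.

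H2-DMb2, a close copy of H2-DMb1 (ENSMUSG00000037548.14, chr17:34143307-34151553, plus strand), was the least expressed of the 3 DM genes. It had 1, 5 and 12 counts in the sham libraries and 20, 49 and 36 in the BCAS libraries, so that sham mouse 1 lay below the limit of 3 counts. BCAS mouse 2, the lowest BCAS library for H2-DMb1, was the highest for H2-DMb2. Its log2 fold change of 2.65 had the largest error of the 8 genes (SE 0.674, adjusted P = 0.0174). The call rested on single sham libraries, since the adjusted P was 0.0505 without sham mouse 1 and 0.061 without sham mouse 2. Transcripts of H2-DMb1 and H2-DMb2 share 179 stretches of 100 bases, taken at every start position so that they can overlap. These are 13.7% of the stretches of H2-DMb1 and 10.3% of those of H2-DMb2. Reads that aligned to several places were not counted, so the counts of both genes may be low and the split between them is uncertain.

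Ciita, the coactivator itself, had the smallest fold change of the 7 genes that rose. It (ENSMUSG00000022504.10, chr16:10480059-10528418, plus strand) had 31, 19 and 33 counts in the sham libraries and 60, 60 and 62 in the BCAS libraries. The 3 BCAS libraries were nearly equal at 1.94 ± 0.0818 CPM, above the sham libraries at 0.815 ± 0.215 CPM (SD, n = 3 each). The log2 fold change was 1.25 (SE 0.299, adjusted P = 0.0135), close to the fold threshold of 1. In a test against that threshold (edgeR's glmTreat) its adjusted P was 0.998. Of its 9535 exonic bases, 3.45% are shared with Dexi, a neighbouring gene. Ciita has several promoters used by different cell types and 6 annotated protein-coding transcripts, which counts per gene do not tell apart.

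Read per length, as RPKM (CPM divided by the exonic length in kilobases), the order of the 8 levels differed between the groups. In sham mice H2-DMa was the most abundant at 8.26 ± 0.107 RPKM (SD, n = 3), above Cd74 at 3.27 ± 0.815 RPKM and H2-Eb1 at 2.42 ± 0.246 RPKM. The ranges of Cd74 and H2-Eb1 overlapped. H2-Aa at 1.51 ± 0.184 RPKM and H2-Ab1 at 1.49 ± 0.270 RPKM overlapped each other, and H2-DMb1 followed at 0.993 ± 0.310 RPKM. H2-DMb2 and Ciita were lowest, at 0.103 ± 0.0946 RPKM and 0.0854 ± 0.0225 RPKM, with overlapping ranges. In BCAS mice Cd74 was first at 35.5 ± 2.42 RPKM and H2-DMa second at 15.2 ± 1.5 RPKM. H2-Ab1, H2-Eb1 and H2-Aa lay together at 12.2 ± 1.94, 11.9 ± 1.56 and 10.4 ± 0.932 RPKM, with overlapping ranges, and H2-DMb1 was at 6.91 ± 1.95 RPKM. H2-DMb2 at 0.661 ± 0.295 RPKM and Ciita at 0.203 ± 0.00857 RPKM were again lowest, and here their ranges did not overlap. Cd74 thus moved from a level below H2-DMa to one above it, while Ciita remained at the bottom of the order.

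**Figure D2:**
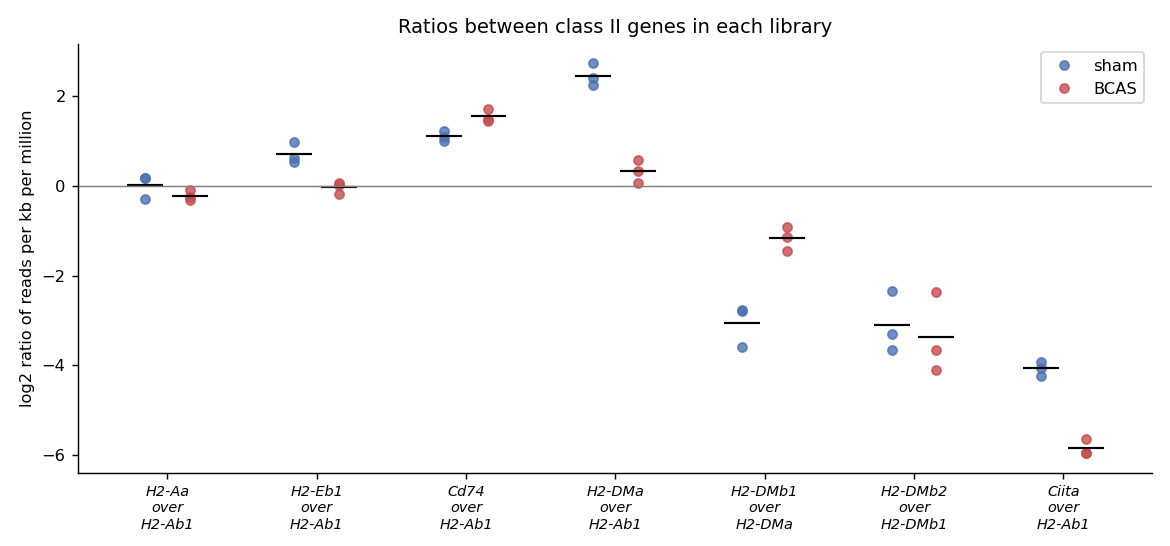
Log2 ratios of the RPKM levels of 7 pairs of genes (y axis) in each sham library (blue) and BCAS library (red), with group means as black lines. The BCAS points lie below the sham points for H2-DMa and Ciita over H2-Ab1 and above them for H2-DMb1 over H2-DMa (none of these passed a test), and the groups overlap for H2-Aa over H2-Ab1 and H2-DMb2 over H2-DMb1.

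The balance between partner chains was compared in 7 ratios of RPKM levels, each computed within a library. Between 3 libraries and 3 the exact permutation test (two-sided) gives no P below 0.1, or 0.14 after adjustment over the 7 ratios, so that no ratio could pass a threshold of 0.05. H2-Aa stood at 1.02 times the level of H2-Ab1 in the sham group and at 0.862 times after BCAS, with overlapping libraries (difference in log2 ratio -0.24, exact permutation P = 0.3, adjusted P = 0.35). Without sham mouse 3 that difference was -0.39. Transcripts of both I-A chains thus stood near parity in either group. For H2-Eb1 over H2-Ab1 the ratio went from 1.64 to 0.978, without overlap (exact permutation P = 0.1, adjusted P = 0.14). Cd74 over H2-Ab1 went from 2.15 to 2.93, also without overlap and at the same P values.

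The widest gaps were those of H2-DMa and Ciita. H2-DMa stood at 5.50 times the level of H2-Ab1 in sham mice and at 1.25 times in BCAS mice, a difference in log2 ratio of -2.14. H2-DMb1 reached 0.120 of the level of its partner H2-DMa in sham mice and 0.446 in BCAS mice. Counted transcripts of H2-DMa thus exceeded those of H2-DMb1 in both groups. Reads that aligned to both H2-DMb1 and H2-DMb2 were not counted, so this ratio may be too low. For Ciita over H2-Ab1 the ratio went from 0.0595 to 0.0173. These 3 ratios did not overlap between groups and had the smallest P the exact permutation test can give, 0.1. H2-DMb2 over H2-DMb1 overlapped widely (0.116 and 0.0962, exact permutation P = 0.6, adjusted P = 0.6). The sign of its difference, -0.27 in log2, was not stable, at 0.13 with a prior count of 0.5, 0.11 when sham mouse 3 was left out and 0.09 when BCAS mouse 1 was.

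The remaining class II genes of the mouse were both of H2-DO, an inhibitor of H2-DM known from B cells and dendritic cells, and the silent genes H2-Ea-ps and H2-Eb2. H2-Ob rose from 8, 18 and 12 counts in sham mice to 229, 224 and 310 counts in BCAS mice (log2 fold change 4.43, SE 0.305, adjusted P = 2.73e-05). H2-Oa rose from 7, 9 and 8 counts to 99, 67 and 184 counts (log2 fold change 3.96, SE 0.448, adjusted P = 0.000314). Both fold changes were above those of the 8 genes, from low sham levels, and in both the groups did not overlap. H2-Oa shares 15.2% of its exonic bases with BC051537 on the other strand, which held at most 5 counts in any library.

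Markers of the cell types in which H2-DO is best known are given for comparison. Of the B cell markers Ms4a1, Cd79a, Cd79b and Pax5, 3 could be tested and Cd79b rose (log2 fold change 2.31). The defining marker Ms4a1 had at most 12 counts in any library, and the 4 markers summed to 0.874 to 1.44 CPM in sham mice and 1.86 to 3.11 CPM in BCAS mice. Of 7 dendritic cell markers 6 were tested and 1 rose, Xcr1, with 4, 0 and 1 counts in sham mice and 10, 10 and 12 in BCAS mice. Flt3 and Zbtb46 gave log2 fold changes of -0.30 and 0.07 (adjusted P = 0.154 and 0.769). Clec9a, Itgae and Cd209a were at 0.66, 0.75 and 0.79 (adjusted P = 0.42, 0.184 and 0.548) and were not called. The median of the tested dendritic cell markers was 0.70. Ccr7, too low to test, had 2, 0 and 4 counts in sham mice and 7, 34 and 25 in BCAS mice. The part of these cells in the class II levels was not tested.

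**Figure D3:**
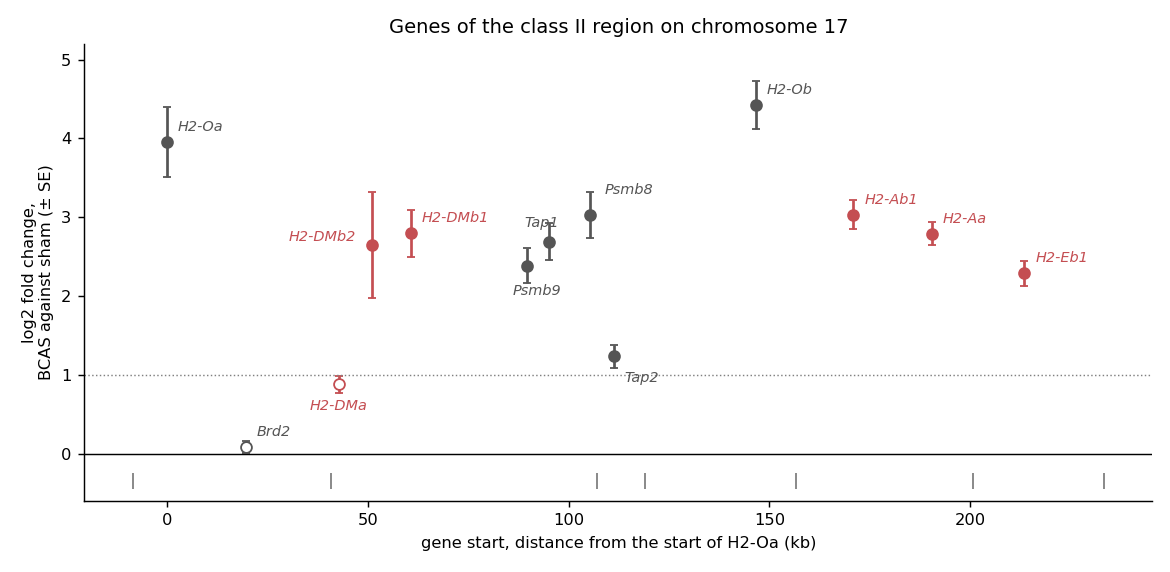
Log2 fold change between BCAS and sham mice (y axis, ± SE) of the genes from H2-Oa to H2-Eb2 on chromosome 17, placed by gene start in kb from the start of H2-Oa. Red marks 6 of the 8 genes described here, grey the other genes, filled points are DEGs and ticks at the bottom are 7 genes with too few counts to test. Brd2 lies at 0.08, in the midst of genes between 0.88 and 4.43.

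Of the 8 genes, 6 lie in 1 stretch of chromosome 17, the class II region of the major histocompatibility complex. From H2-Oa to H2-Eb2 (chr17:34092340-34340229, 247.9 kb) the annotation holds 20 genes. Of the 14 that are not among the 8, 6 rose, 0 fell, 1 was not called and 7 had too few counts to test. The 6 were H2-Oa, H2-Ob and 4 genes of the class I pathway, which cut and transport cytosolic peptides. These were Psmb8 (log2 fold change 3.03, adjusted P = 0.000138), Tap1 (2.69, adjusted P = 7.8e-05), Psmb9 (2.38, adjusted P = 0.00012) and Tap2 (1.24, adjusted P = 0.000423). Brd2, which encodes a chromatin reader, lies between H2-Oa and H2-DMa. Its counts were 7011 to 7477 in the sham group and 7030 to 7245 after BCAS. Scaled, these were 204.2 to 220.5 CPM in sham mice and 222.8 to 232.9 CPM in BCAS mice, without overlap. The log2 fold change of Brd2 was 0.08 (SE 0.072, adjusted P = 0.421). Genes that differed strongly and a gene that hardly differed thus stood side by side.

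For the proteins that hold CIITA at the promoters, the RNA of 7 genes was measured, Rfx5, Rfxap, Rfxank, Nfya, Nfyb, Nfyc and Creb1. None was a DEG with edgeR or with DESeq2, and 4 of the 7 had an unadjusted P under 0.05. The list's median log2 fold change was 0.17. Nfya came closest to the fold threshold, from 671, 578 and 563 counts in sham mice to 1051, 909 and 1300 counts in BCAS mice (log2 fold change 0.96, SE 0.140, adjusted P = 0.00129). Nfyb was lower in BCAS mice, at -0.48 (SE 0.082, adjusted P = 0.00298). Their summed level was 234.5 to 244.8 CPM in sham mice and 238.0 to 240.0 CPM in BCAS mice. All 7 were well expressed in either group, unlike Ciita.

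Genes of the interferon-γ pathway, the best known inducer of Ciita, gave a mixed picture. Of 9 genes, 8 were tested and 5 rose, with a list median of 1.19. Irf8, a transcription factor of macrophages, rose most (log2 fold change 4.01, adjusted P = 1.6e-05), followed by Nlrc5, the counterpart of CIITA for class I genes (3.25, adjusted P = 4.1e-05). Nlrc5 went from 56, 46 and 36 counts to 344, 349 and 522 counts. The receptor chain Ifngr1 (1.66), the transcription factor Irf1 (1.34) and the feedback inhibitor Socs1 (1.04) also rose. The second receptor chain Ifngr2 (-0.08, adjusted P = 0.466) and the kinases Jak1 (-0.13, adjusted P = 0.182) and Jak2 (0.29, adjusted P = 0.0184) were not called. Ifng itself had 0 counts in every sham library and 2, 2 and 0 counts in BCAS mice 1 to 3, which is at or under the limit of 3 counts in each.

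**Figure D4:**
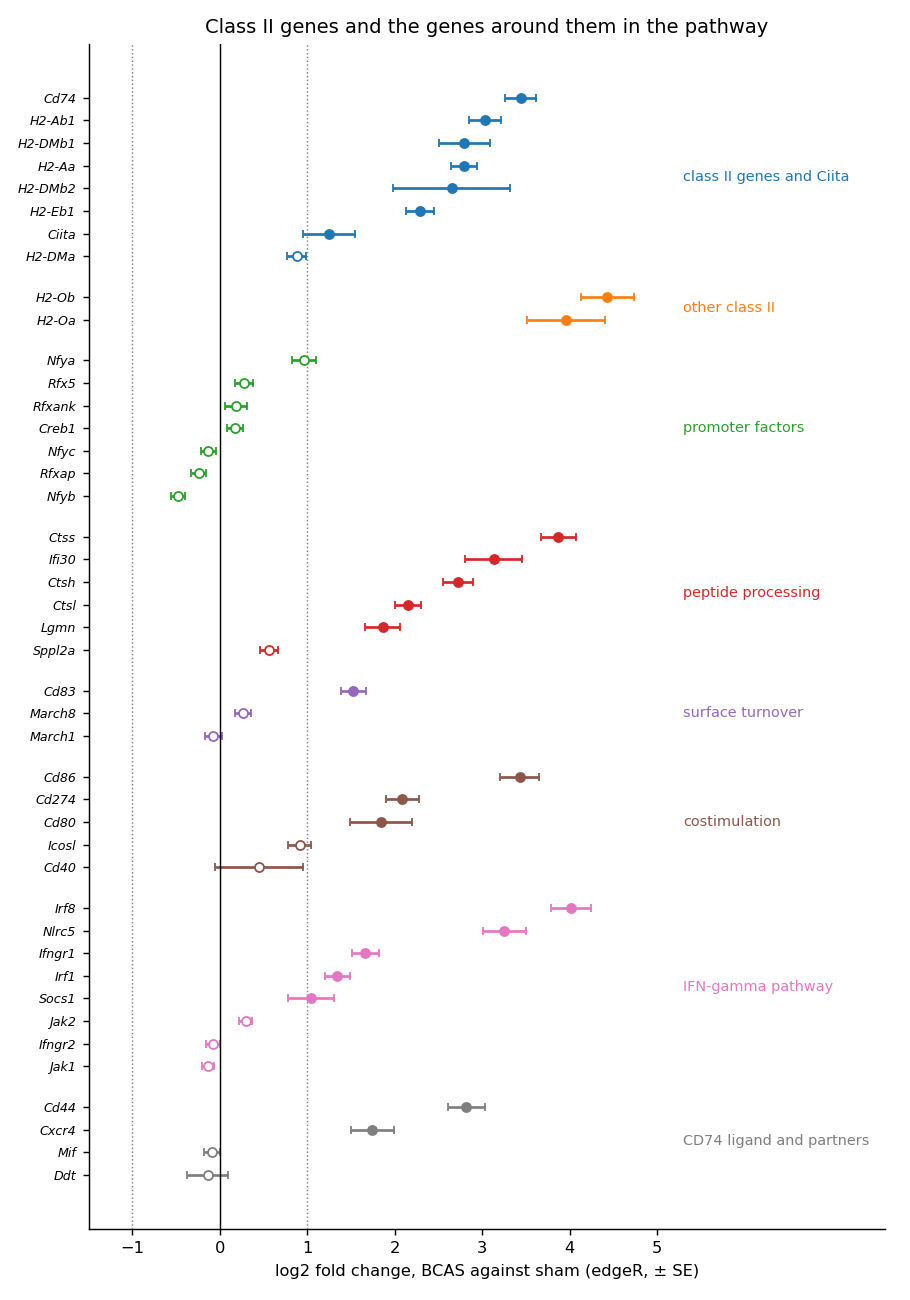
Log2 fold change between BCAS and sham mice (x axis, edgeR estimate ± SE) of the 8 genes and of the other tested genes of the pathway, by group and without the T cell genes. Filled points are DEGs, open points are not, and dotted lines mark a log2 fold change of 1 in either direction. The promoter factors lie between -0.48 and 0.96, while 5 of 6 processing genes lie at 1.86 or above.

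For the endosomal proteins that prepare class II molecules for peptide, the RNA of 6 genes was measured. Of these, 5 rose, with a list median of 2.44. Ctss, the protease cathepsin S that makes the last cuts in the invariant chain, went from 1768, 1679 and 1683 counts to 17805, 21086 and 30261 counts (log2 fold change 3.87, SE 0.20, adjusted P = 1.2e-05). Ifi30, a reductase that opens disulfide bonds of antigens, rose by 3.13, and the proteases Ctsh, Ctsl and Lgmn by 2.72, 2.15 and 1.86 on the same scale. Sppl2a, which clears the remnant of the invariant chain from the membrane, was at 0.56 (adjusted P = 0.00324) and was not called. All of these proteases also serve general lysosomal breakdown. Of 3 genes that set the time class II molecules stay at the surface, Cd83, which opposes their ubiquitination, rose (1.52, adjusted P = 0.000114). The ubiquitin ligase genes March1 (-0.07, adjusted P = 0.607) and March8 (0.26, adjusted P = 0.0644) were not called.

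Ligands and partners on the surface were described by the same fit. Among 6 costimulatory genes 5 were tested and 3 rose: Cd86 (log2 fold change 3.43), Cd274, which encodes the inhibitory ligand PD-L1 (2.09), and Cd80 (1.84). Icosl (0.91, adjusted P = 0.0012) and Cd40 (0.45, adjusted P = 0.543) were not called. Of the CD74 ligands, Mif had 3108, 3445 and 3651 counts in sham mice and 2883, 3121 and 2814 in BCAS mice (log2 fold change -0.09, adjusted P = 0.465), and Ddt was at -0.14 (adjusted P = 0.689). The genes of CD74's signalling partners Cd44 (2.82) and Cxcr4 (1.74) rose. Cxcr2 had too few counts to test. So the receptor and some of its partners were higher while both ligands were not called.

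On the T cell side, all 7 tested genes of 8 rose, most of them at low counts. Apart from Lag3, the tested genes passed the filter on low counts only through the BCAS libraries. That all of them rose therefore followed largely from the filter. Ctla4, with 6, 1 and 0 counts in sham mice and 8, 15 and 0 in BCAS mice, was not tested. Cd3e had 0, 3 and 5 counts in sham mice and 23, 20 and 30 in BCAS mice. Cd3g had 2, 2 and 4 counts and then 27, 36 and 22, and Cd4, the class II coreceptor, had 10, 9 and 8 and then 52, 32 and 41. Lag3, an inhibitory receptor for class II that is also transcribed in microglia, stood apart by its level. It went from 179, 183 and 207 counts to 3374, 2951 and 4641 counts (log2 fold change 4.38, SE 0.176, adjusted P = 5e-06). Over all 8 lists of pathway genes, 25 of 42 tested genes rose, beside 8.47% of all tested genes. The lists were chosen with earlier results of these data known. The T cell genes other than Lag3 were tested only because they were high enough in BCAS mice. These counts are therefore descriptions.

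**Figure D5:**
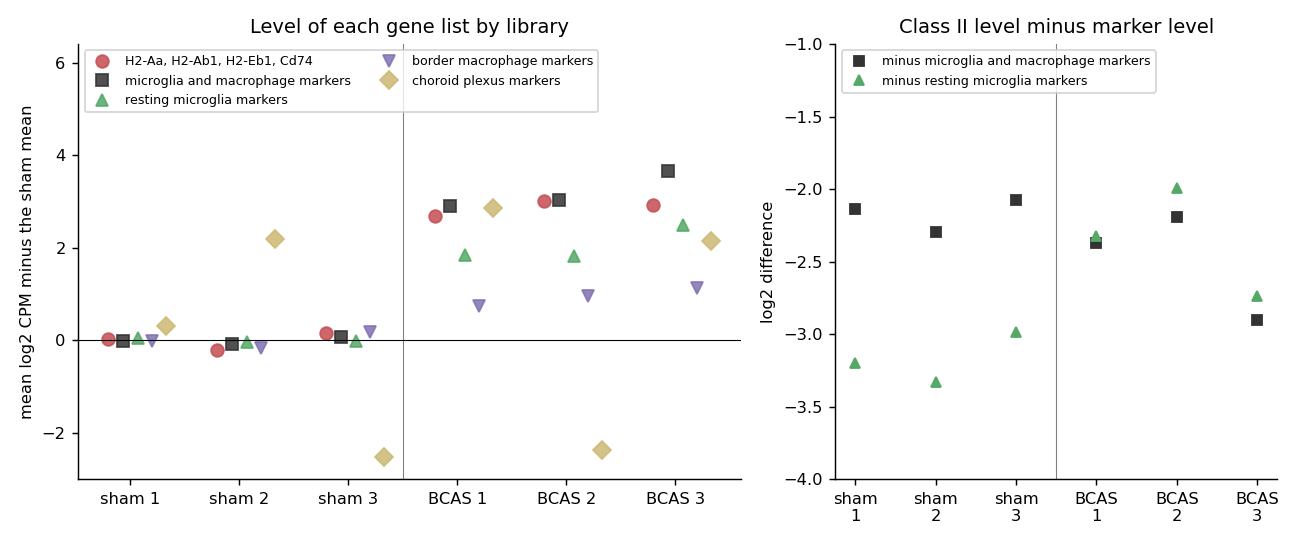
Left, mean log2 CPM of 4 class II genes and of marker lists in each library, as the difference from the sham mean (y axis). Right, the mean log2 level of the 4 class II genes minus that of each marker list. Class II genes sit between 2.69 and 3.00 in the BCAS libraries, microglia and macrophage markers climb to 3.65 in BCAS mouse 3, and choroid plexus markers swing within both groups.

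The class II level was set beside marker levels of cells that can carry it. The level was taken as the mean log2 CPM of H2-Aa, H2-Ab1, H2-Eb1 and Cd74, which stood 2.69, 3.00 and 2.92 above the sham mean in BCAS mice 1 to 3. Markers shared by microglia and macrophages (Csf1r, Aif1, Itgam, Laptm5, Tyrobp) were all 5 called up and stood 2.90, 3.03 and 3.65 above it. Markers of resting microglia (P2ry12, Tmem119, Sall1, Siglech, Cx3cr1) were all 5 called up and stood 1.84, 1.82 and 2.49 above it. Relative to the shared markers the class II level was -2.14, -2.30 and -2.08 in sham mice and -2.37, -2.19 and -2.90 in BCAS mice. The libraries overlapped, with a difference of -0.32 (exact two-sided permutation P = 0.2), which was -0.11 without BCAS mouse 3. Relative to resting microglia markers it was -3.19, -3.33 and -2.99 in sham mice and -2.32, -1.99 and -2.73 in BCAS mice, a difference of 0.82 (exact permutation P = 0.1, the smallest possible). The direction of the comparison thus turned with the marker list, and the part of cell numbers in the class II rise was not tested.

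The individual BCAS libraries did not rank alike for the 8 genes and for most genes that rose. BCAS mouse 3 was the highest library for 83.2% of the 1576 genes that rose, for 5 of 5 shared macrophage markers and for 5 of 5 resting microglia markers. Among the 8 genes it was the highest for 3, H2-Ab1, H2-DMa and H2-DMb1, and BCAS mouse 2 was the highest for the other 5. Some of these ranks were near ties. In BCAS mice 2 and 3 Ciita was at 1.987 and 1.986 CPM and H2-Ab1 at 21.73 and 21.85 CPM. The class II genes H2-Oa and H2-Ob, outside the 8, were highest in BCAS mouse 3, at 5.89 and 9.93 CPM. The order of the libraries was not tested. BCAS mouse 2 was also the library with the least choroid plexus RNA in its group (45.0 CPM, against 5870 in BCAS mouse 1 and 3172 in BCAS mouse 3), and the part of that tissue in the class II levels was not tested. Markers of border macrophages (4 of 6 called up, median log2 fold change 1.07) summed to 8.34 to 11.5 CPM in sham mice and 19.3 to 25.3 CPM in BCAS mice. Of 4 monocyte markers 3 rose, among them Ccr2, from 18, 14 and 19 counts to 99, 132 and 176, and the 4 summed to 5.54 to 11.1 CPM in BCAS mice. Astrocyte markers were higher in BCAS mice too, standing 1.92, 1.85 and 2.02 above the sham mean in BCAS mice 1 to 3, with 2 of 3 called up (Gfap, log2 fold change 3.29, and Aqp4, 1.67). The part of these cells in the class II levels was not tested.

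The genes whose pattern over the 6 libraries was most like the class II level were found among 15623 other genes with a mean of at least 1 CPM. Likeness was the root mean square difference of log2 CPM after subtracting each gene's sham mean. The closest was Il1rl2, a receptor chain for interleukin-36, with a difference of 0.0936 and levels of 0.737 ± 0.130 CPM in sham mice and 5.72 ± 0.569 CPM in BCAS mice (SD, n = 3 each). Also among the closest were Csf2rb2, a cytokine receptor β chain, at 0.162, Tnfrsf1b, a TNF receptor, at 0.170 and Plau, the urokinase gene, at 0.181. These 4 genes rose, with log2 fold changes of 2.85 to 3.06, which follows from how they were chosen. The 6 points share libraries and depth, so the likeness is a description.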

How the data were processed

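RNA-seq counts of right hippocampus from 3 sham and 3 BCAS mice, grouped by sample title, were used. Trimmed reads had been aligned by the authors to mm10 with HISAT2, and they deposited raw counts per gene from featureCounts. According to the file headers each mate of a pair was counted as a read, strand was ignored and reads with several alignments were left out. The headers name featureCounts 2.0.3 and GENCODE M20, the submitters' processing notes featureCounts 1.6.3. The BCAS columns carry mouse numbers shifted by 1 from the sample titles, and the titles were used.

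Genes kept by filterByExpr were normalized by TMM and tested with edgeR 4.0.16 (R 4.3.3, limma 3.58.1, DESeq2 1.42.0), without a replicate block. Log2 CPM used a prior count of 2. The steps were tested on simulated data. Named are the 8 genes, the genes of the lists, the genes from H2-Oa to H2-Eb2 and the genes most alike (4 of the 5 that the rule gives). A few genes of the lists and of the rule are not reported here and do not enter the lists' values. The 8 genes and all lists were chosen with earlier results of these data known. Gene positions and shared exonic bases are those of the count tables, and transcripts were read from GENCODE M21. Alternatives were other tools, scalings, filters and thresholds, a block, each library left out and, chosen after seeing the data, counts halved because mates were counted separately.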

Additional observations from a re-analysis of the deposited data

How the results depend on the processing

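The number of the 8 genes that rose stayed at 7 with DESeq2, limma-voom, RLE normalization, library totals, looser and stricter count filters and counts halved. With glmTreat it was 5 (H2-DMb2, adjusted P = 0.173, and Ciita were lost), and with the adjusted P alone it was 8, since H2-DMa then counted. Leaving out single libraries gave 6 to 7, with H2-DMb2 lost without sham mouse 1 or sham mouse 2. Over all genes the 1762 DEGs became 818 with glmTreat, 5819 with the adjusted P alone and 1306 to 1976 without single libraries. Library totals moved the median log2 fold change of all tested genes from 0.02 to 0.09. Pathway genes that rose numbered 21 with glmTreat, 29 with the adjusted P alone and 24 to 27 without single libraries, beside 25. The class II level relative to microglia and macrophage markers (-0.32) reversed to 0.82 with resting microglia markers in their place and ran from -0.47 to -0.11 without single libraries. Leaving out single libraries put the H2-Aa to H2-Ab1 difference between -0.39 and -0.16 and that of H2-DMb2 to H2-DMb1 between -0.78 and 0.11 (0.13 and -0.68 with prior counts of 0.5 and 5), and the other 5 ratios kept their sign. The log2 fold changes ranged from 2.15 to 3.60 for H2-DMb2 and from 1.04 to 1.38 for Ciita, and no fold change of the 8 genes changed sign in any of 16 fits. With the replicate number as a replicate block, 7 of the 8 genes, 25 pathway genes and 1595 DEGs were called. Libraries with the same number did not deviate together (residual correlations 0.036, -0.314 and -0.158), so the title numbers were not taken to pair the mice, and the shifted numbers of the BCAS columns were not tried. Low counts limit H2-DMb2, Ciita and the T cell genes.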
